A study of Mus musculus with 6 samples.

Results

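The genes of sterol and fatty acid synthesis described here are 36 names of the 29955 in a table of transcript levels from mouse endothelial cells. They were chosen by gene name and by no threshold on a value: enzymes of the mevalonate and cholesterol pathways, the SREBP control proteins, enzymes of fatty acid synthesis, and proteins that carry or sense sterols. Of these, 34 passed a filter of a mean of at least 1 FPKM (the sequenced fragments of a gene, divided by the length of its transcript and by the size of the library) and were tested among 11816 genes. The study examined TGF-β and microRNA-31 in endothelial-to-mesenchymal transition, the process in which endothelial cells take on features of mesenchymal cells. MS-1 cells, an immortalised endothelial line derived from mouse pancreatic islets, were transfected with 1 of 3 inhibitors and then cultured for 72 hours without TGF-β or with 1 ng/ml TGF-β2. The inhibitors are labelled LNA-NC (taken here as the control inhibitor, though the labels do not expand NC), LNA-miR31 and LNA-miR27. LNA usually stands for locked nucleic acid. Each of the 6 conditions had 1 library, so no condition was replicated. All 6 were grown in serum, which carries lipoprotein cholesterol, and all came from a single cell line.

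Cells make cholesterol from acetyl-CoA through mevalonate and the isoprenoids to squalene, which is closed into a ring and trimmed by a series of enzymes of the endoplasmic reticulum. SREBP2, encoded by Srebf2, switches on the genes of this pathway when sterols are scarce, whereas SREBP1, encoded by Srebf1, acts more on fatty acid synthesis. Scap escorts both precursors to the Golgi for cleavage, and the Insig proteins hold Scap back when sterols are plentiful. The LXR receptors respond to oxysterols and switch on genes of cholesterol export.

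The inhibitors were designed against microRNAs whose mature sequences are shown here because the seed, bases 2 to 8, sets which messages a microRNA can pair with. The sequences are those of RefSeq on build GRCm38.p6, with the seed in capitals.
mmu-miR-31-5p: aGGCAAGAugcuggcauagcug
mmu-miR-27a-3p: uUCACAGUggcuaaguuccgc
mmu-miR-27b-3p: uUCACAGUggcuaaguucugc
miR-31-5p lies at chr4:88910614-88910635 on the minus strand, miR-27a-3p at chr8:84208727-84208747 and miR-27b-3p at chr13:63300760-63300780, both on the plus strand. The miR-27 pair share 1 seed. The labels name neither the arm nor the member of the miR-27 family, so these are the arms usually meant.

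Seed matches were looked for in the longest 3′ UTR of each gene in the GENCODE vM21 annotation, as the 7 bases complementary to the seed on the message strand, TCTTGCC for miR-31 and ACTGTGA for miR-27. For miR-31, 4 of the 34 members with a UTR held a match (11.8%), against 1262 of 9543 tested genes (13.2%). For miR-27, 6 of 34 members did (17.6%), against 1701 of 9543 (17.8%). The members' UTRs were somewhat longer, with a median of 1507.5 bases against 1192. The miR-31 matches were in Mvk, Npc2, Srebf2 and Stard4, and the miR-27 matches in Elovl6, Fasn, Npc1, Npc2, Sc5d and Scd2. The miR-31 site of Stard4 is not printed, though its levels are also given in full below. The sites of 4 other members whose levels are given in full below are printed with their surroundings, 5′ to 3′ on the message strand, with the match in capitals.
Srebf2, miR-31 match: agacccgggtcTCTTGCCttgagatgggg
Mvk, miR-31 match: tggctcctggcTCTTGCCctctctcggag
Npc2, miR-31 match: caacagattctTCTTGCCtttttagctct
Npc2, miR-27 match: gctatggatccACTGTGAaggatggcttc
Scd2, miR-27 match: cgcctaacaatACTGTGActcagtattct
On GRCm38 these lie at chr15:82204953-82204981 (plus strand), chr5:114460475-114460503 (plus), chr12:84754964-84754992 (minus), chr12:84756749-84756777 (minus) and chr19:44306434-44306462 (plus). A match is a stretch of letters and does not show pairing in these cells.

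The libraries were alike in the number of genes at 1 FPKM or more, 11680 to 11791. The endothelial markers Pecam1 (593 to 647 FPKM), Emcn (219 to 395 FPKM) and Cdh5 (167 to 206 FPKM) were high in all 6, and the 9 endothelial markers summed to 1455 to 1559 FPKM without TGF-β and 1575 to 1604 FPKM with it. Of the 9, Emcn (0.79) and Flt1 (0.14) rose with TGF-β, Kdr (-0.80), Tie1 (-0.33) and Esam (-0.39) fell, and 4 were not called. No hepatocyte, adipocyte or pancreatic marker exceeded 0.273 FPKM in any library. Of 7 leukocyte markers measured only Lyz2 (1.03 to 1.68 FPKM) passed the filter, and of 6 epithelial markers only Krt18 did. Krt18, a keratin, was at 38.2 to 54.0 FPKM without TGF-β and 11.4 to 15.8 with it, and the epithelial markers summed to 38.8 to 54.5 and 13.6 to 17.4 FPKM in those groups. The defining epithelial markers were near 0, with Epcam listed at 0 in all 6 libraries and Cdh1 at 0.0281 FPKM or less, as was the leukocyte marker Ptprc at 0.0257 FPKM or less. Below the filter, Krt19 (0.170 to 0.475 FPKM without TGF-β, 0.718 to 1.37 with it), Cldn4 (0.0271 to 0.0815 and 0.684 to 0.984) and the leukocyte marker Csf1r (0.0390 to 0.0840 and 0.312 to 0.342) were higher in every library with TGF-β. The LNA-miR31 library with TGF-β stood apart in genes of endoplasmic reticulum stress: Hspa5, a chaperone, was at 1493 FPKM against 522 to 715 in the others, Ddit3, a stress transcription factor, at 298 against 19.6 to 70.1, and Herpud1, a factor of protein degradation, at 218 against 18.4 to 31.2. In that library Asns (78.1 FPKM), Psat1 (149 FPKM) and Phgdh (136 FPKM), from the same list of stress genes, were below every untreated library. All other stress genes of the list were highest in the LNA-miR31 library with TGF-β. Counts of members are therefore also given without that transfection.

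Of the 36 members, 2 could not be tested. Hmgcs1, the enzyme that makes HMG-CoA, was listed at 0 in all 6 libraries at a place on the unplaced sequence 13_random of mm9, so its level is not known from these values. Mylip, a ubiquitin ligase and LXR target, was listed at 0.0185 to 0.0312 FPKM. Several members also share their listed place with another name, among them Fdft1 with the protease gene Ctsb, Srebf1 with Rai1, Npc1 with 3110002H16Rik and Tm7sf2 with 1110014N23Rik and Ffr, and Scd1 and Scd2 or Acat2 and Acat3 are similar in sequence. How fragments were divided between such names is not given in the sources used here, so these values are less certain.

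With TGF-β, 17 of the 34 tested members changed (50.0%), 8 higher and 9 lower, by limma with Benjamini-Hochberg adjustment over all 11816 genes at 0.05. Over all genes tested 50.2% changed, 22.7% higher and 27.5% lower, so the members changed about as often as any other gene, and the share is not a result about the pathway. The median change of the members was 0.01 on the log2(FPKM + 1) scale, against -0.02 for all genes, and their median absolute change was 0.16 against 0.17. Both directions occurred among the mevalonate, sterol and fatty acid enzymes. Only 2 members were called among the SREBP control proteins, both lower, and 2 among the transport proteins, both higher. Counts this small show no pattern by role. The members that changed most were Scd2, Npc2, Stard4 and Mvd, which rose, and Scd1 and Sqle, which fell. These are levels per unit of RNA in a culture, in which fewer cells of a type and less RNA per cell cannot be told apart.

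**Figure D1:**
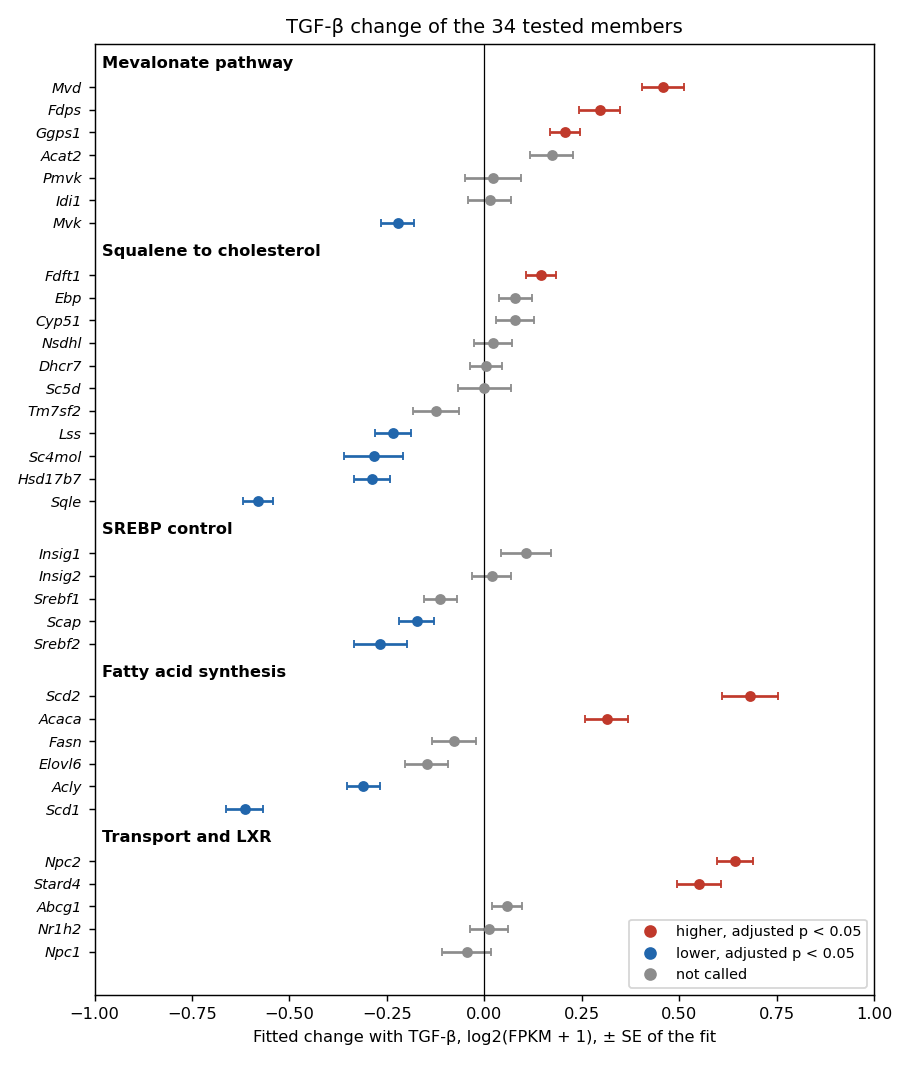
Fitted TGF-β change of the 34 tested members on the log2(FPKM + 1) scale, ordered by role, with bars of 1 SE of the fit. Red points are members called higher and blue ones called lower by limma at an adjusted p under 0.05, grey ones were not called, and the changes run from -0.62 in Scd1 to 0.68 in Scd2.

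All 17 members called had the same sign in the 3 transfections, and their 3 libraries with TGF-β lay all above or all below the 3 without. This complete separation held for 18 of the 34 members, the last being Cyp51, and for 58.4% of all genes tested. The calls were made from these same values, so the shared sign and the separation are no further support for them. Without the LNA-miR31 libraries, 15 members were called, 8 higher and 7 lower. Without either LNA-NC library 9 were called and without either LNA-miR27 library 11. The calls over all genes went from 5926 to 3566 or 3586 without an LNA-NC library, to 3941 without an LNA-miR27 library and to 6102 or 6110 without an LNA-miR31 library. Of the 17 calls, 9 were made under every alternative that tested the gene: Mvd, Fdps, Sqle, Hsd17b7, Acly, Scd1, Scd2, Npc2 and Stard4. Nothing shows that the cultures were independent beyond the transfections, so the p-values do not measure a spread between replicates. They rest on the spread left between these libraries after the inhibitor and TGF-β terms of the fit, combined with that of all genes tested.

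**Figure D2:**
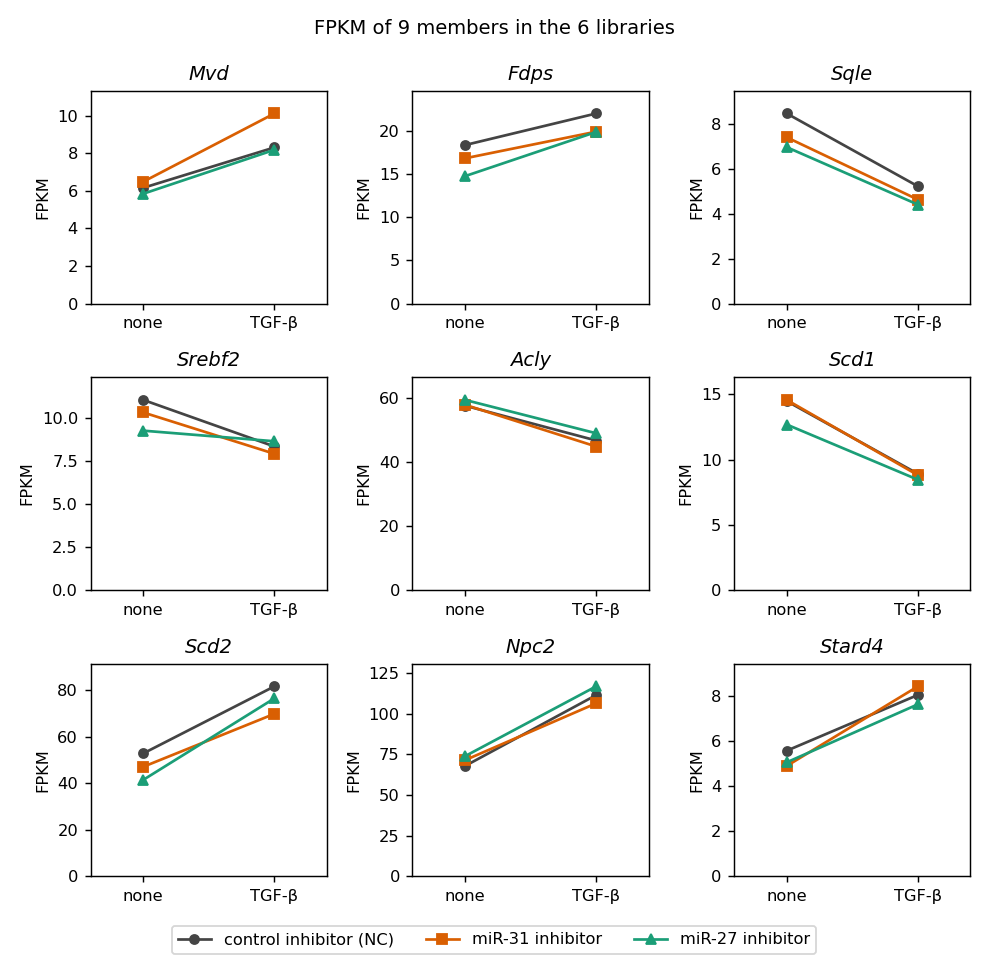
FPKM of 9 members in each of the 6 libraries, without and with TGF-β, 1 point per library and 1 line per inhibitor. Mvd, Fdps, Scd2, Npc2 and Stard4 are higher in each library with TGF-β, and Sqle, Srebf2, Acly and Scd1 are lower in each.

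Among the enzymes that lead from acetyl-CoA to the isoprenoids, 3 of 7 tested rose, 1 fell and 3 were not called. Mvd, which decarboxylates mevalonate diphosphate to isopentenyl diphosphate (mm9 chr8:124957496-124967322), was at 6.16 FPKM with LNA-NC, 6.49 with LNA-miR31 and 5.85 with LNA-miR27 without TGF-β. With TGF-β the values were 8.31, 10.1 and 8.19. The lowest treated library was above the highest untreated one, and the LNA-miR31 library was the highest of the treated. The mean rose 1.44-fold, a fitted change of 0.46 ± 0.05 (SE, limma adjusted p = 0.00253).

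Mvk, the kinase that puts the first phosphate on mevalonate (mm9 chr5:114894315-114910599), went the other way. It was at 12.2, 11.7 and 11.6 FPKM without TGF-β, in the order LNA-NC, LNA-miR31 and LNA-miR27 kept from here on, and at 9.90, 9.89 and 10.1 with it. The treated values were nearly equal and all below the untreated ones. The fitted change was -0.22 ± 0.04 (limma adjusted p = 0.0117), and the adjusted p was 0.0818 or 0.0820 without either LNA-NC library. Pmvk, the kinase that acts between Mvk and Mvd, ran from 3.60 to 4.78 FPKM and was not called (0.02, adjusted p = 0.820). The enzymes that handle mevalonate in succession thus had 1 decrease, 1 member not called and 1 increase.

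Downstream, Fdps, which builds farnesyl diphosphate (mm9 chr3:88897510-88905867), was at 18.3, 16.8 and 14.7 FPKM without TGF-β and 22.0, 19.9 and 19.8 with it. All treated libraries exceeded the untreated, and the change was 0.30 ± 0.05 (limma adjusted p = 0.00914). Ggps1, which makes the geranylgeranyl diphosphate used to anchor small GTPases (mm9 chr13:14143196-14155679), was at 16.6, 15.8 and 15.5 FPKM and then at 19.4, 18.5 and 17.8. It rose by a similar amount in each transfection, 0.21 ± 0.04 (adjusted p = 0.0109). The adjusted p of Ggps1 was 0.0745 or 0.0748 without an LNA-NC library and 0.0607 without an LNA-miR27 library.

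Acat2, which joins acetyl-CoA units at the head of the pathway, was at 19.9, 17.2 and 16.3 FPKM without TGF-β and at 22.3, 18.1 and 20.2 with it. The ranges overlapped, and the change of 0.17 ± 0.06 missed the threshold (limma adjusted p = 0.0539). It passed without an LNA-miR31 library (0.22, adjusted p = 0.0221 or 0.0224), with upper quartile scaling of the libraries (0.21, 0.0274), with a filter of 5 FPKM (0.0470) and with trend and robust options (0.0355). Over the other alternatives the adjusted p of Acat2 ran from 0.0663 to 0.239, the highest without an LNA-miR27 library. Idi1, the isomerase of isopentenyl diphosphate, ranged from 4.49 to 5.33 FPKM and was not called (0.01, adjusted p = 0.851).

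The promoters of Mvd and Mvk are printed because these enzymes of 1 short pathway moved in opposite directions. They were chosen after their values were seen. Each is the 250 bases before the start of the gene in RefSeq, build GRCm38.p6, read 5′ to 3′ along the gene, with CCAAT boxes (CCAAT or its complement ATTGG) and GC boxes (GGGCGG or its complement CCGCCC) in capitals.
Mvd, chr8:122443423-122443672, minus strand: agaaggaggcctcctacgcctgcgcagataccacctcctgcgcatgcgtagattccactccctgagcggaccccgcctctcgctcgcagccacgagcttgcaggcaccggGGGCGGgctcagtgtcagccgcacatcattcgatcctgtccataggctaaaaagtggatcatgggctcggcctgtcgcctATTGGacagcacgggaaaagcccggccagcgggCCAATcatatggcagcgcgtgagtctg
Mvk, chr5:114444019-114444268, plus strand: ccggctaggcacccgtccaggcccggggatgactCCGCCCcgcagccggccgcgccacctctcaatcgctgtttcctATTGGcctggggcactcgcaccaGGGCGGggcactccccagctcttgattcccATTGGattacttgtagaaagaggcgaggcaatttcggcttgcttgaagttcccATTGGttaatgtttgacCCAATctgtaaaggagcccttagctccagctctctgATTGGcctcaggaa
The Mvd stretch holds 2 CCAAT boxes and 1 GC box, and the Mvk stretch 5 CCAAT boxes and 2 GC boxes, with no overlap between boxes.

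Promoter windows, from 250 bases before to 50 after a start, were matched for 28 of the 36 members and gave 36 windows. The members without a window were Abcg1, Fdft1, Fdps, Npc1, Scd1, Scd2, Sqle and Stard4. The counts therefore leave out Scd1, Scd2, Sqle and Stard4, which were among the most changed. On either strand, CCAAT was found in 24 of these 36 windows (66.7%), against 37.4% of all 32851 windows in the RefSeq table, which include genes not expressed here. GGGCGG was found in 26 of 36 (72.2%) against 35.7%. The SREBP element TCACNCCAC was found in 1 (2.78%), that of Hmgcs1, against 1.24%. Only this exact string was looked for, with any base at N, so a window without it may hold another form of the element. CCAAT was in the windows of 3 of the 4 matched members that rose, 6 of the 7 that fell and 12 of the 15 that were not called. GGGCGG was in 2 of 4, 7 of 7 and 11 of 15. A match is a description of the letters and does not show that a factor binds there.

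Of the 11 enzymes from squalene synthesis to cholesterol, 1 rose, 4 fell and 6 were not called, with a median change of -0.00. Sqle, the monooxygenase that acts on squalene and one of the rate-limiting enzymes of the pathway (mm9 chr15:59146647-59162748), was the most changed. It was at 8.48, 7.41 and 6.97 FPKM without TGF-β and 5.23, 4.63 and 4.41 with it. The mean fell to 0.624 of the untreated, and the responses in the 3 transfections, -0.61, -0.58 and -0.56, were close to each other. The fitted change was -0.58 ± 0.04 (limma adjusted p = 0.000481).

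Lss, which closes the ring to lanosterol from the product of Sqle, fell from 3.52, 3.39 and 2.99 FPKM to 2.65, 2.89 and 2.42. Its change of -0.23 ± 0.05 (limma adjusted p = 0.0125) was not called without an LNA-NC library (adjusted p = 0.0812 or 0.0814) or without an LNA-miR27 library (0.0610). Hsd17b7, the ketone reductase of the demethylation complex, fell from 4.26, 4.11 and 3.93 FPKM to 3.38, 2.96 and 3.20. Its change was -0.29 ± 0.05 (adjusted p = 0.00681), and all treated libraries lay below the untreated.

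Sc4mol, the methyl oxidase of the same complex (Msmo1 in current naming), showed a response that was small in 1 transfection. It was at 15.0, 15.4 and 14.7 FPKM without TGF-β, and at 11.1 with LNA-NC, 14.5 with LNA-miR31 and 11.1 with LNA-miR27 when TGF-β was present. The fitted change was -0.28 ± 0.08 (limma adjusted p = 0.0318). This call was lost without an LNA-NC library (adjusted p = 0.142 or 0.143), without an LNA-miR27 library (0.129), with no filter on low values (0.118), with upper quartile scaling (0.0542) and with no inhibitor term (0.0547).

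Fdft1, which condenses farnesyl diphosphate to squalene, was at 5.56, 5.95 and 5.79 FPKM without TGF-β and 6.17, 6.74 and 6.54 with it. Its change was small, 0.14 ± 0.04 (limma adjusted p = 0.0315). The adjusted p was 0.131 or 0.130 without an LNA-NC library, 0.0524 or 0.0525 without an LNA-miR31 library and 0.152 without an LNA-miR27 library. Its listed place spans that of Ctsb, whose values were 131 and 94.7 FPKM without and with TGF-β with LNA-NC.

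The other 6 sterol enzymes were not called. Cyp51, the lanosterol demethylase, ran from 9.49 to 10.8 FPKM (0.08, adjusted p = 0.238), and Tm7sf2, a reductase, from 1.76 to 2.31 FPKM (-0.12, adjusted p = 0.142). The dehydrogenase Nsdhl changed by 0.02 and the isomerase Ebp by 0.08 (adjusted p = 0.723 and 0.168). The desaturase Sc5d was at -0.00 and Dhcr7, which makes the last reduction to cholesterol, at 0.00 (adjusted p = 0.998 and 0.949).

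Among the 5 SREBP control proteins, 2 fell and 3 were not called. Srebf2, the regulator of the sterol genes (mm9 chr15:81977699-82035390), was at 11.0, 10.3 and 9.25 FPKM without TGF-β and 8.33, 7.91 and 8.64 with it. The fall was larger with LNA-NC (-0.37) and LNA-miR31 (-0.34) than with LNA-miR27 (-0.09), where the untreated library was already the lowest of the 3. That difference between transfections was not tested. The fitted change was -0.27 ± 0.07 (limma adjusted p = 0.0283). The call was lost without an LNA-NC library (adjusted p = 0.133 or 0.134), without an LNA-miR31 library (0.0593 or 0.0602) and with no filter (0.102).

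Scap, the escort of both SREBP precursors, was at 8.86, 8.80 and 8.51 FPKM without TGF-β and 7.64, 7.36 and 7.87 with it. The groups did not overlap, and the change was -0.17 ± 0.05 (limma adjusted p = 0.0298). With 1 library left out the adjusted p ran from 0.0593 to 0.143, and with upper quartile scaling it was 0.0559. Srebf1 was at 12.3 to 13.6 FPKM without TGF-β and 11.1 to 12.6 with it, -0.11 ± 0.04 and not called (adjusted p = 0.0819). Insig1 (0.11, adjusted p = 0.219) and Insig2 (0.02, adjusted p = 0.781), the proteins that retain Scap, were not called either.

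In fatty acid synthesis, 2 of the 6 enzymes rose, 2 fell and 2 were not called, and the first enzymes in line moved in opposite directions. Acly, which supplies cytosolic acetyl-CoA from citrate (mm9 chr11:100337666-100389314), was at 57.6, 57.8 and 59.3 FPKM without TGF-β and 46.7, 44.8 and 48.9 with it. It fell to a similar degree in each transfection, by 0.31 ± 0.04 on the log2 scale (limma adjusted p = 0.00391). Acaca, which turns acetyl-CoA to malonyl-CoA (mm9 chr11:83943174-84215153), was at 20.2, 20.2 and 20.0 FPKM and then at 26.2, 23.2 and 26.6.
The untreated values of Acaca were nearly identical, and all 3 treated ones were above them. The change was 0.31 ± 0.06 (limma adjusted p = 0.00931), and the adjusted p was 0.0585 or 0.0596 without an LNA-NC library and 0.0519 without an LNA-miR27 library. Fasn, the synthase that follows, was at 24.7 to 28.4 FPKM and not called (-0.08, adjusted p = 0.290). Elovl6, which lengthens palmitate, was at 2.99 to 3.39 FPKM without TGF-β and 2.42 to 3.31 with it (-0.15, adjusted p = 0.0780).

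The stearoyl-CoA desaturases Scd1 and Scd2, which put the double bond into oleate and palmitoleate, gave the lowest and the highest change of all members. Their listed places on mm9 are neighbours, Scd2 at chr19:44368166-44381352 and Scd1 at chr19:44468940-44482199, with 87587 bases between them. Scd1 was at 14.5, 14.6 and 12.7 FPKM without TGF-β and 8.90, 8.81 and 8.46 with it. Scd2 was at 52.9, 47.2 and 41.5 FPKM without TGF-β and 81.8, 69.9 and 76.6 with it. Neither gene's groups overlapped.
Scd1 fell to 0.627 of its untreated mean, -0.62 ± 0.05 (limma adjusted p = 0.000677), and Scd2 rose 1.61-fold, 0.68 ± 0.07 (adjusted p = 0.00185). Scd2 was the more abundant per length in every library. Fragments that fit both genes could move level from one to the other, and the split used is not given in the sources used here.

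Of the 5 tested proteins that carry, export or sense sterols, 2 rose, none fell and 3 were not called. Npc2, the soluble lysosomal protein that hands cholesterol to Npc1 (mm9 chr12:86095509-86114062), had the highest FPKM of the members in every library. It was at 67.8, 71.4 and 73.8 FPKM without TGF-β and 111, 106 and 117 with it. The untreated values lay within a narrow band, far below the treated ones. The mean rose 1.57-fold, 0.64 ± 0.05 (limma adjusted p = 0.000573).

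Stard4, which moves sterol between membranes through the cytosol, was at 5.59, 4.91 and 5.07 FPKM without TGF-β and 8.07, 8.45 and 7.65 with it. It rose 1.55-fold, 0.55 ± 0.06 (limma adjusted p = 0.00173), with no overlap. Npc1, the membrane partner of Npc2 in the lysosome, was not called (-0.05, adjusted p = 0.573) and ran from 9.97 to 12.3 FPKM. Abcg1, an LXR target that exports cholesterol, was at 18.2 to 24.1 FPKM (0.06, adjusted p = 0.264). It passed with no filter on low values (adjusted p = 0.0467). The receptor LXRβ, Nr1h2, was at 18.4 to 20.7 FPKM (0.01, adjusted p = 0.853).

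The TGF-β response of each transfection rests on 2 libraries and has no test, so members were counted where the difference was at least 0.5. With LNA-NC 4 of 34 members did so, 2 higher (Scd2 and Npc2) and 2 lower (Sqle and Scd1), beside 14.8% of all genes. With LNA-miR31 there were 6, which added Mvd (0.57) and Stard4 (0.68), beside 16.4%, and with LNA-miR27 5, which added Stard4 (0.51), beside 14.3%. No member reached a difference of 1 in any transfection. Of the 34 members, 24 moved the same way in all 3. The share of all genes that did so is not given here, so nothing about the members is read from this count.

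The LNA-miR31 response differed from the mean of the other 2 by 0.31 in Sc4mol, 0.26 in Sc5d, 0.25 in Pmvk and 0.19 in Stard4, the highest values. The lowest were -0.21 in Npc1 and Tm7sf2 and -0.19 in Acaca. These differences were not tested. The median response of the 15 stress genes was 1.15 with LNA-miR31, -0.69 with LNA-NC and -0.52 with LNA-miR27. The members' differences ran in both directions, and the part of the stress genes in them was not tested.

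**Figure D3:**
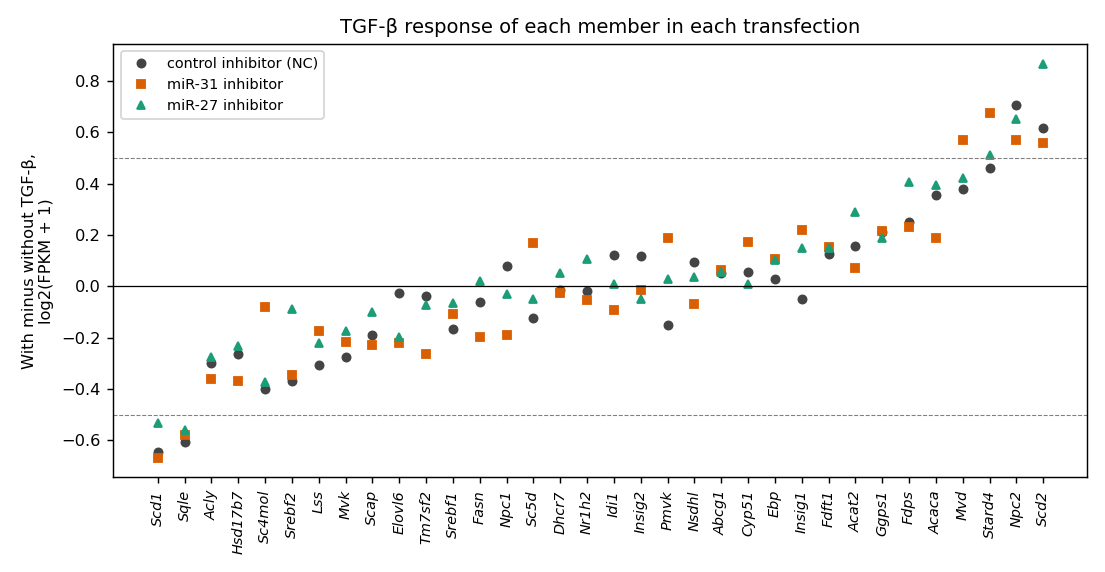
TGF-β response of each tested member, as the difference of 2 libraries in log2(FPKM + 1) on the vertical axis, with 1 point per transfection (LNA-NC is the control inhibitor), members ordered by the fitted change and dashed lines at 0.5 above and below 0. All 3 points of Scd1 and Sqle lie below the lower line and all 3 of Npc2 and Scd2 above the upper one, while Sc4mol is at -0.08 with LNA-miR31 and at -0.40 and -0.37 in the other 2.

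The miR-31 comparison asked how members differed between LNA-miR31 and LNA-NC over both TGF-β states. No member was called by limma, with 0.0339% of all genes (4 of 11816) called, and 6 members had an unadjusted p under 0.05, as did 2135 of all genes. The fitted differences ran from -0.24 in Acat2 to 0.33 in Abcg1. Abcg1 was at 18.2 FPKM without and 19.0 with TGF-β for LNA-NC, and at 23.0 and 24.1 for LNA-miR31. Both LNA-miR31 libraries were above both LNA-NC ones, with a difference of 0.33 ± 0.05 and a limma adjusted p of 0.211.

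The other members with an unadjusted p under 0.05 were Elovl6 (-0.24), Sqle (-0.16), Insig2 (0.19) and Srebf1 (0.14), beside Acat2. Without the untreated LNA-miR31 library 2 members were called, Sc4mol at 0.35 ± 0.06 (limma adjusted p = 0.0350) and Abcg1 at 0.33 ± 0.06 (adjusted p = 0.0375). That fit compares the treated LNA-miR31 library alone, which is the one high in stress genes, and assumes that it varies like the others. As differences of 2 libraries, none of the 34 members reached 0.5 without TGF-β, beside 1.05% of all genes, and none did with it, beside 3.46%. The 4 members with a miR-31 seed match, Mvk, Npc2, Srebf2 and Stard4, differed by -0.03, 0.00, -0.08 and -0.05.

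The miR-27 comparison used the same LNA-NC libraries, so its values are not independent of those of miR-31. Again no member was called (0.00846% of all genes, 1 of 11816), and 8 members had an unadjusted p under 0.05, as did 1470 of all genes. Sqle was at 8.48 and 5.23 FPKM with LNA-NC and at 6.97 and 4.41 with LNA-miR27, lower in both states, a difference of -0.23 ± 0.05 with a limma adjusted p of 0.295. That was the lowest adjusted p of a member. Fdps (-0.22), Acat2 (-0.20), Elovl6 (-0.18) and Pmvk (-0.24) were also lower, and Abcg1 (0.19), Insig2 (0.21) and Npc1 (0.22) higher, at unadjusted p under 0.05 and past no adjusted threshold.

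As differences of 2 libraries, no member reached 0.5 with LNA-miR27 without TGF-β (1.07% of all genes did) or with it (0.863%). The furthest were Scd2 (-0.34) and Insig2 (0.29) without TGF-β and Elovl6 (-0.27) and Abcg1 (0.19) with it. Of the members with a miR-27 seed match, Elovl6 was at -0.18, Fasn at -0.01, Npc1 at 0.22, Npc2 at 0.09, Sc5d at -0.04 and Scd2 at -0.22 in the fit, on both sides of 0. Between LNA-miR31 and LNA-miR27 themselves no member was called, with 0.0169% of all genes (2) called. There Mvd (0.20), Abcg1 (0.14) and Lss (0.16) had an unadjusted p under 0.05, as did 403 of all genes, and the lowest adjusted p was 0.921.

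**Figure D4:**
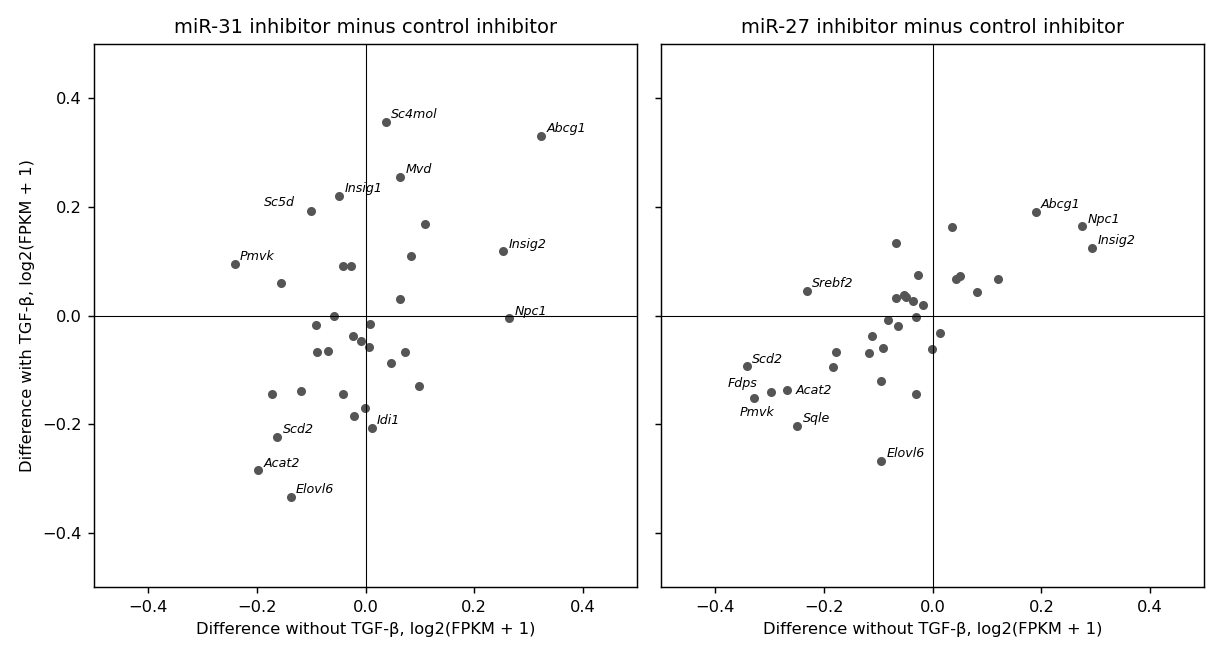
Difference of each tested member from LNA-NC (control inhibitor) with TGF-β (vertical) against that without (horizontal), in log2(FPKM + 1), for the miR-31 inhibitor (left) and the miR-27 inhibitor (right). All points lie within 0.5 of 0, and Abcg1 is the only labelled member above 0.3 on both axes, in the left panel.

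Genes of the same pathways outside the members were read from 7 lists with 102 tested names, of which 28 rose and 30 fell with TGF-β and 44 were not called. The counts of each list stand beside a background of 50.2% of all genes called, 22.7% higher and 27.5% lower, and nothing particular to a list is read from them. Of 8 further enzymes of sterol metabolism 1 rose and 4 fell. Ch25h, which makes 25-hydroxycholesterol, a sterol that holds back SREBP cleavage and binds LXR, was at 111, 102 and 93.4 FPKM without TGF-β and 23.7, 15.8 and 17.1 with it. Each treated library was far below its untreated one, and the change was -2.39 ± 0.09 (limma adjusted p = 9.2e-05). Aacs, which activates acetoacetate for lipid synthesis, fell by 0.31. Without an LNA-miR27 library 0 of the 8 rose.

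Of 14 genes that control SREBP processing or sterol-regulated protein degradation 1 rose, 4 fell and 9 were not called. Rnf145, a ubiquitin ligase that acts on Scap, rose by 0.67 ± 0.06 (limma adjusted p = 0.000931), and Erlin1, a partner of Insig in the endoplasmic reticulum, fell by 0.41. Syvn1, a ligase of protein degradation there, was at 11.1 FPKM in the LNA-miR31 library with TGF-β and at 4.25 to 4.53 in the others, and was not called (adjusted p = 0.183). Without an LNA-miR27 library 1 of the 14 fell, and without an LNA-miR31 library 2 rose. Of 30 further genes of fatty acid and glyceride synthesis 9 rose and 9 fell, and 6 rose and 5 fell without a library of either LNA-NC or LNA-miR27. The desaturase Fads2 rose by 1.10 ± 0.06, from 16.0 to 17.3 FPKM without TGF-β to 34.2 to 39.0 with it, its relative Fads3 rose by 0.77, and Dgat2, which makes triglyceride, fell by 0.94.

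Of 19 further genes of lipoprotein uptake and sterol transport 4 rose and 7 fell, and 2 rose without an LNA-NC library and 1 without an LNA-miR27 library. Lrp1, a large endocytic receptor, rose by 0.74 and Lrp8 fell by 0.71. Of 6 further LXR receptors, partners and targets 5 rose and 1 was not called, with a median of 0.39. Abca1, which exports cholesterol to apolipoprotein A-I, rose by 1.25 ± 0.08 (adjusted p = 0.000473), from 1.64 to 1.81 FPKM to 4.79 to 6.26. Pltp, which transfers phospholipid, rose by 0.66 and Arl4c by 0.48, and without an LNA-miR27 library 4 of the 6 genes were called.

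Of 13 genes that use isoprenoids 1 rose, 5 fell and 7 were not called. The lowest were Rabggta, which attaches geranylgeranyl groups to Rab proteins (-0.60), Pdss1, which builds the tail of coenzyme Q (-0.53), and Nus1, a subunit of the enzyme that makes dolichol (-0.31). Of 12 genes of fatty acid oxidation and handling 7 rose, 1 fell and 4 were not called, with a median of 0.36. The enzymes of oxidation themselves were mixed: Cpt1a and Acadvl rose, Acadm fell (-0.43), and Cpt2, Acadl, Hadha and Hadhb were not called. The fatty acid carrier Fabp4 was at 6.15 to 6.48 FPKM without TGF-β and 37.5 to 39.3 with it, 2.42 ± 0.04 (limma adjusted p = 2.08e-05). Cpt1a, the gate to mitochondrial oxidation, rose by 1.30 and Angptl4, an inhibitor of lipoprotein lipase, by 0.74. Fabp4 is also a gene of adipocytes, and the 6 adipocyte markers stayed at or below 0.123 FPKM in every library. Without an LNA-miR27 library 6 genes of oxidation and handling rose, and without one 3 of the genes that use isoprenoids fell.

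**Figure D5:**
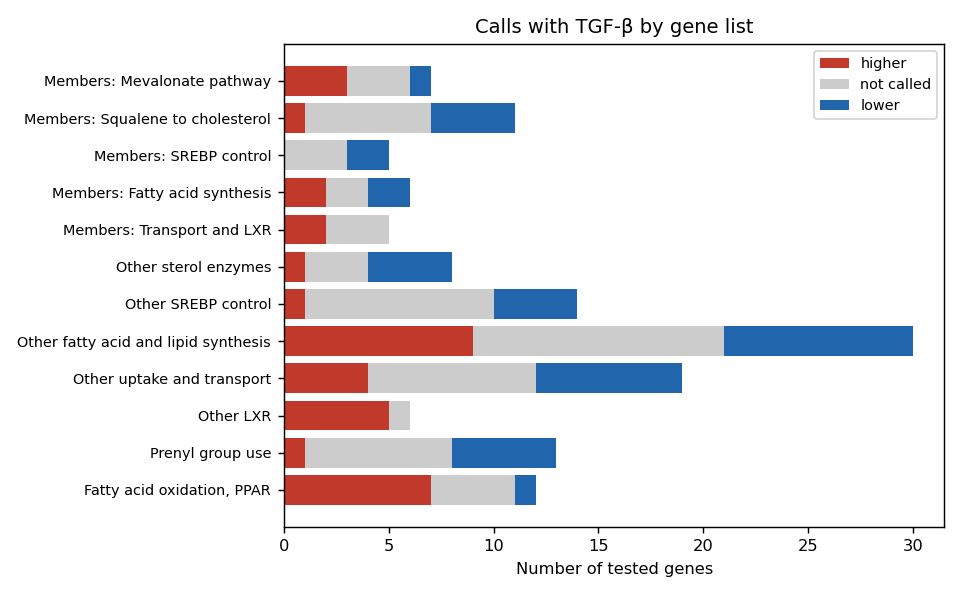
Number of tested genes in each list (horizontal axis) that were higher, not called or lower with TGF-β by limma at an adjusted p under 0.05, stacked in 1 bar per list, with the 5 roles of the members first. Among the members each role has at most 3 higher. Of the 6 further LXR genes 5 were higher and none lower, and 7 of the 12 genes of fatty acid oxidation and handling were higher. Over all genes tested 22.7% were higher and 27.5% lower, and nothing particular to a list is read from these counts.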

How the data were processed

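The authors deposited FPKM values for 29955 gene names in 6 libraries, used as deposited. TopHat2 2.0.9 and Cufflinks 2.1.1 are the tools, and mm9 the build, in the submitters' processing notes. The annotation, how fragments were counted and any filter are not given in the sources used here. The libraries were directional and made after depletion of rRNA, per the labels' protocols. The depth is unknown, so no count test or interval was made. Listed starts were found to count from 0 and are printed from 1.

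Genes averaging 1 FPKM or more were tested on log2(FPKM + 1) with limma 3.58.1 in R 4.3.3, an additive model of inhibitor and TGF-β with 2 residual degrees of freedom (prior 2.87), no trend or robust option, 2-sided, with Benjamini-Hochberg adjustment over all 11816 genes and a threshold of 0.05. Fold changes on this scale understate low genes. Where the inhibitors alter a response to TGF-β, that difference enters the residual along with noise. The fit was checked on simulated data. Differences of 2 libraries have no test.

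All members were named, with values in every library for those called and for the 12 with the largest change, and the 3 most changed genes of each further list, some of which are not reported here. The members and lists were chosen with earlier results of these data known. Protein sequences of related members were not used here. Alternatives were the pseudocount, filter, scaling, moderation, libraries left out and no inhibitor term.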

Additional observations from a re-analysis of the deposited data

Results flagged for a closer look

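In 2 members the TGF-β response was positive in one transfection and negative in another with 0.1 or more on each side, as log2(FPKM + 1). Pmvk, the phosphomevalonate kinase, responded by -0.15 with LNA-NC, 0.19 with LNA-miR31 and 0.028 with LNA-miR27. Sc5d, the lathosterol desaturase, responded by -0.12 with LNA-NC, 0.17 with LNA-miR31 and -0.049 with LNA-miR27. Each response is a difference of 2 libraries, and the difference between transfections was not tested. In both members the positive response of 0.1 or more includes the LNA-miR31 library with TGF-β, in which Hspa5 was at 1493 FPKM against 522 to 715 in the others. Whether the 2 are related was not tested.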

How the results depend on the processing

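The number of members called with TGF-β was 17, and 16 to 18 with the pseudocount of 0.1, no filter, a filter of 5 FPKM, upper quartile scaling, trend and robust options or no inhibitor term. With 1 library left out it ran from 9 to 15 (higher 5 to 8, lower 4 to 7), all genes called from 3566 to 6110, further list genes including stress genes from 41 to 69, and members called with the miR-31 inhibitor from 0 to 2. With both LNA-NC libraries left out 9 were called (5 higher, 4 lower) and 3595 of all genes. With both LNA-miR27 libraries left out 11 were called (5 higher). Leaving out 1 library of a transfection leaves its partner without weight in the TGF-β estimate. The cause of the lower counts was not tested. Upper quartile scaling gave 9 higher and 7 lower in place of 8 and 9, and moved the median change of all genes from -0.02 to 0.02. At a difference of at least 1 the members counted were 0 with LNA-NC, 0 with LNA-miR31 and 0 with LNA-miR27.

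None of the 17 members called changed sign under any alternative. All 17 had the same sign in every transfection, so leaving out libraries or the inhibitor term could not reverse them. Their unchanged sign is therefore no further support for the calls. Some changes near 0 did change sign, and the cause was not tested. With both LNA-miR31 libraries left out Pmvk was at -0.060 and Npc1 at 0.025. With both LNA-NC libraries left out Idi1 was at -0.041, Nsdhl at -0.014, Insig2 at -0.032 and Sc5d at 0.061. With both LNA-miR27 libraries left out Sc5d was at 0.024, Dhcr7 at -0.020 and Nr1h2 at -0.036, and with upper quartile scaling Sc5d was at 0.040. With 1 library left out the ranges were -0.060 to 0.11 for Pmvk, -0.041 to 0.068 for Idi1, -0.014 to 0.068 for Nsdhl, -0.086 to 0.061 for Sc5d, -0.020 to 0.019 for Dhcr7, -0.032 to 0.052 for Insig2, -0.11 to 0.025 for Npc1 and -0.036 to 0.044 for Nr1h2. No paired analysis was possible because each condition has 1 library and so no second replicate number, beyond the inhibitor term, which already sets each library with TGF-β against the one without it in the same transfection (16 members called without that term). Depth is unknown, so its limit on low members such as Dhcr7 and Tm7sf2 cannot be given.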
